A study of Mus musculus with 12 samples.

Results

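The genes of the adhesion switch and the regulators of epithelial to mesenchymal transition (EMT) were followed in basal cells around a healing skin wound. They were the classical cadherins Cdh1, Cdh2 and Cdh3, the intermediate filament gene Vim, the transcription factors Snai1, Snai2, Zeb1 and Twist1, and the splicing regulators Esrp1 and Esrp2. These were 10 of 17097 genes measured. Each probe set annotated to one of them alone was kept, which gave 16 of 28898 such probe sets. Where a gene had several, it was led by the one that was brightest on average across all 12 arrays, and the others are given beside it.

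Tail skin of CD1 mice received a wound of 3 mm and was taken at D4 and D7. The leading edge (LE) was obtained with a punch of 4 mm around the wound, the proliferative hub with one of 6 mm, and control skin from tail far from the wound. Each sample pooled 5 mice, and 300 living basal cells of the interfollicular epidermis and infundibulum, positive for α6-integrin and negative for CD34, were sorted from it. The cDNA was amplified and read on Affymetrix PM strip arrays. There were thus 6 groups (LE D4, LE D7, hub D4, hub D7, control D4 and control D7) of 2 arrays each. All groups came from wounded animals, and a punch enriched for its region rather than isolating it. Arrays of one group are labelled as biological replicates, and nothing says whether their pools were separate, so each p measures the spread between these arrays. In such pooled cells, fewer cells of a type and less RNA per cell cannot be told apart.

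In EMT an epithelial cell gives up E-cadherin junctions, may take up N-cadherin, and gains a vimentin network and motility. SNAI, ZEB and TWIST proteins drive this programme and SNAI and ZEB proteins bind E-boxes of the Cdh1 promoter as repressors, whereas ESRP1 and ESRP2 keep the epithelial pattern of splicing. Keratinocytes that close a wound migrate as a sheet that keeps cell contacts, and SNAI2 is known in mouse epidermis for a part in the spreading of cells from the wound margin.

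Values are log2 intensities after robust multi-array average (RMA) normalization by the authors. Array medians ran from 5.40 to 5.47 at D4 and from 4.25 to 4.29 at D7, so the days were not on one level and regions were compared within a day. Replicate arrays correlated at r = 0.988 to 0.993 over their probe sets. The 7 marker genes of basal cells all lay above the array median on all 12 arrays. So did 4 to 5 of 5 suprabasal markers, so this reading does not test the sort. The mean of the 7 basal genes was 11.98 to 12.06 in LE D4, 12.02 to 12.04 in hub D4 and 12.11 to 12.13 in control D4. It was 10.98 to 11.15 in LE D7, 11.13 to 11.15 in hub D7 and 11.24 to 11.28 in control D7. Krt5, Krt14 and Trp63 were called in no comparison between regions. Of the others, Itga6, which encodes the sorted α6-integrin, rose by 0.42 in the LE against control at D4 (limma adjusted p = 0.0327, lost in 4 of 12 fits that left out one array), and Dst, a hemidesmosomal linker, fell by 1.06 at D4 and 0.89 at D7 (adjusted p = 0.000228 and 0.000711).

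The summed markers of hair follicle cells were lowest in the LE on both days, and those of suprabasal cells at D4. The 5 markers of the hair follicle bulge and outer root sheath (Cd34, Lhx2, Sox9, Krt15 and Lgr5) had a summed linear intensity of 765 to 1082 in LE D4, 1498 to 1969 in hub D4 and 2122 to 2319 in control D4. At D7 the sum was 620 to 725 in the LE, 1036 to 1046 in the hub and 1398 to 1514 in control. Krt15, a keratin of the bulge and of basal cells, fell in the LE against control by 2.48 at D4 and 1.88 at D7 (limma adjusted p = 0.00256 and 0.0108, the D7 call being lost in 3 of 12 fits that left out one array) and against the hub by 1.90 at D4, and Sox9, a follicle transcription factor, fell against control by 0.61 at D4 (adjusted p = 0.0366, lost in 8 of 12). With the mean of its probe sets Sox9 differed by -0.07 (adjusted p = 0.854). Of these 5 follicle markers, 2 read higher in LE D4 than in control D4 and 1 in LE D7 than in control D7, none of them called. The median difference of the 5 was -0.11 at D4 and -0.42 at D7. As a mean of log2 values, LE D4 (6.08 to 6.51) overlapped hub D4 (6.49 to 6.68). The 5 suprabasal markers summed to 7522 to 9031 in LE D4, 9883 to 12012 in hub D4 and 11986 to 12083 in control D4, and at D7 to 5738 to 6648 in the LE, 6702 to 7032 in the hub and 6203 to 6401 in control. Krt1 and Krt10, keratins of differentiating cells, fell in the LE against control at D4 by 0.77 and 0.69 (adjusted p = 0.0147 and 0.0288, each lost in 3 of 12). Of the 5 suprabasal markers, 1 read higher in LE D4 than in control D4 and was not called. The part of these cells in the LE values given here was not tested.

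None of the 10 genes was called in any of the 6 comparisons between regions. A gene was called at an adjusted p under 0.05 from limma's moderated test, with Benjamini-Hochberg adjustment over all 17097 genes. For the LE against control, 0 of 10 were called at D4, where 14.1% of all genes were, and 0 of 10 at D7, where 14.6% were. For the hub against control the counts were 0 of 10 at D4, against 0.328% of all genes, and 0 of 10 at D7, against 0.76%. For the LE against the hub they were 0 of 10 at D4, against 4.76% of all genes, and 0 of 10 at D7, against 2.73%. The hub comparisons called so few genes of any kind that a count of 0 there says little about these 10. In the LE comparisons a count of 0 of 10 also rests on few genes, and whether it differed from the shares of all genes was not tested.

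Of the 60 tests, 5 had an unadjusted p under 0.05 in limma. These were Cdh3 in the LE against control at both days and in the hub against control at D4, Esrp2 in the LE against control at D7, and Zeb1 in the LE against the hub at D7. Over all genes, 25.6% and 27.1% lay under that p in the LE against control at D4 and D7, 11% and 12.7% in the hub against control, and 16.3% and 15.8% in the LE against the hub. The rule of the methods, more than 2-fold the same way in each replicate, was met by Vim alone, in the LE against control and against the hub at D7, where 3.34% and 1.16% of all genes met it. It was met by 0 of the 10 in the LE against control at D4 (3.82% of all genes), in the hub against control at D4 and D7 (0.445% and 0.509%) and in the LE against the hub at D4 (1.78%).

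The precision of these values differed between Vim and the other genes. For Cdh1, Cdh2, Cdh3, Snai1, Snai2, Zeb1, Twist1, Esrp1 and Esrp2, the 95% interval of the lead probe set lay inside 2-fold either way in all 6 comparisons. Vim had no such interval. Its own ran as far as 22.7-fold higher, in the LE against control at D4. The plot of intervals shows both. The lead probe sets of Cdh2, Snai1, Zeb1 and Twist1 lay below the array median on every array. Their intervals limit what a dim signal did, and a change of the transcript below its range would not be seen.

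**Figure D1:**
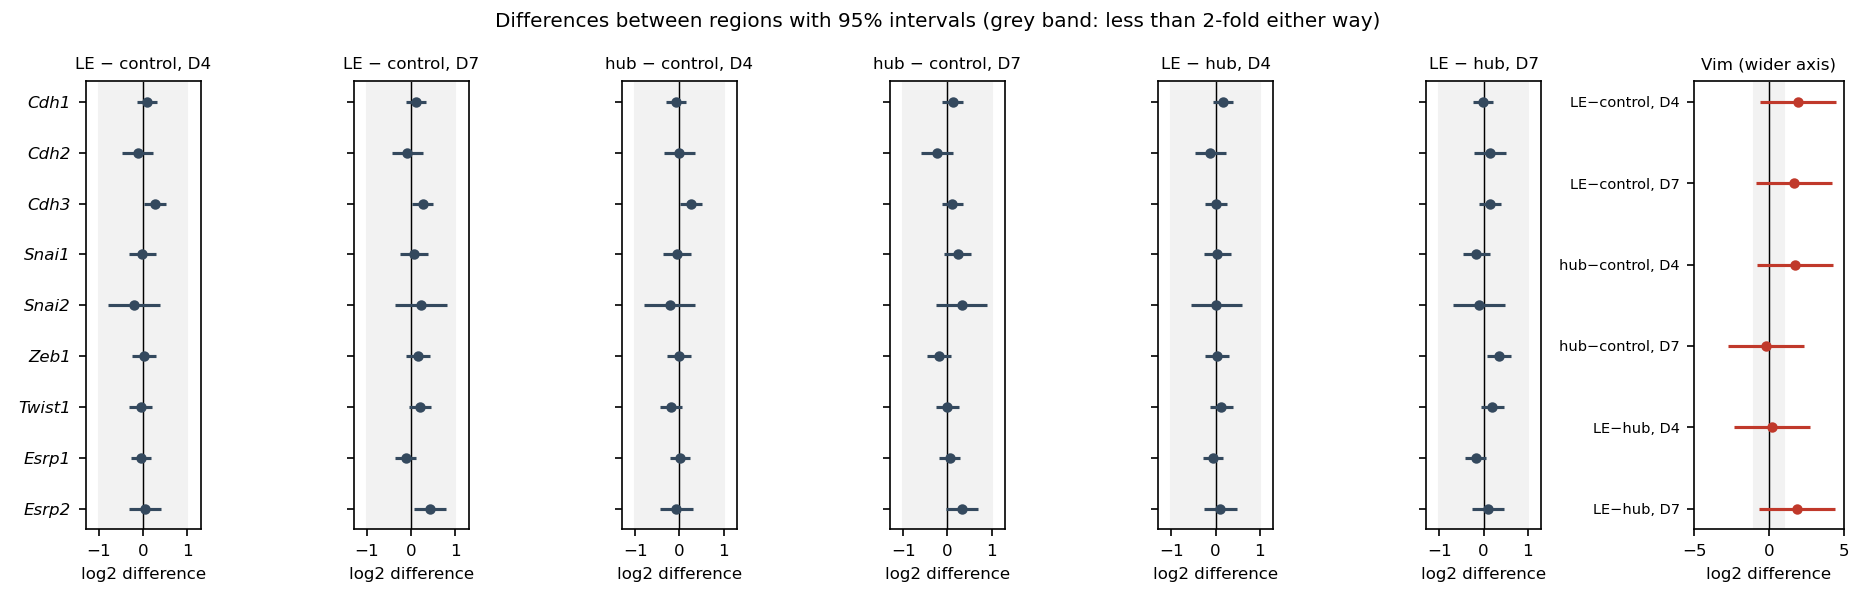
Log2 differences (x axis) of the lead probe sets of 9 genes in 6 comparisons between regions, and of Vim on a wider axis at the right. Points are fitted differences, bars their 95% intervals on 2 arrays a group, and the grey band marks less than 2-fold either way. The bars of the 9 genes stay inside the band, and those of Vim reach beyond it in each comparison. Cdh2, Snai1, Zeb1 and Twist1 are dim, so their bars limit the signal and not the transcript.

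Changes between the days were also small against their error. For the LE over control, the hub over control and the LE over the hub, the difference at D7 minus that at D4 was called for 0 of 10 genes each, against 0.0292%, 0% and 0.0175% of all genes. None of these 30 tests had an unadjusted p under 0.05 in limma, against 7.82%, 4.56% and 5.11% of all genes.

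**Figure D2:**
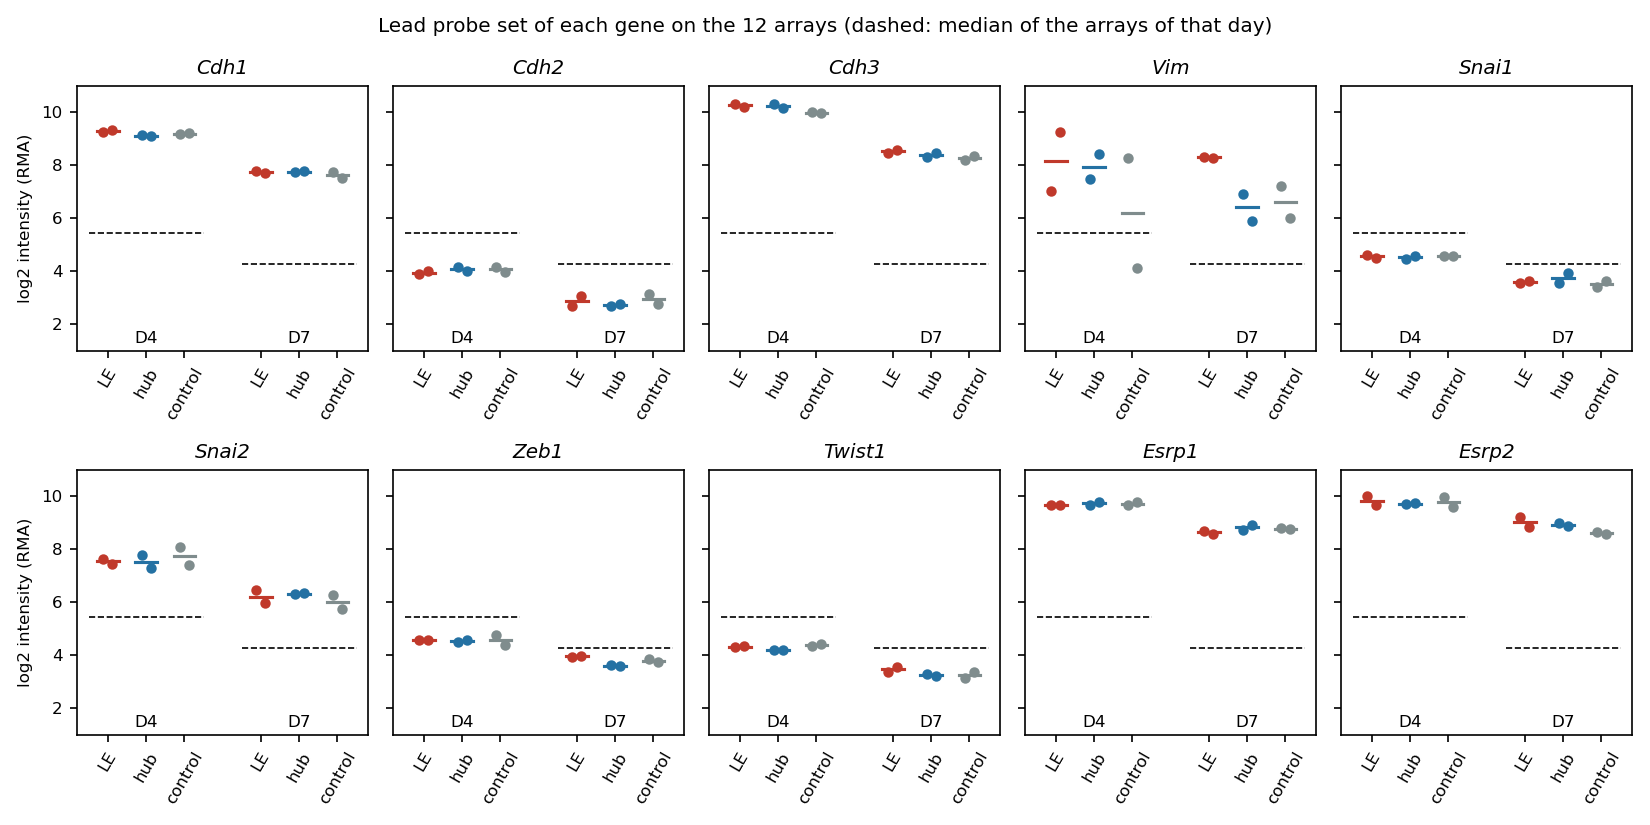
Log2 intensity (y axis) of the lead probe set of each of 10 genes on the 12 arrays, by region and day. Points are arrays, short lines the means of 2 arrays, and dashed lines the median of the arrays of that day. Cdh1, Cdh3, Esrp1 and Esrp2 lie far above the dashed lines in all regions, Cdh2, Snai1, Zeb1 and Twist1 lie below them, and the arrays of Vim are spread widely.

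Cdh1 encodes E-cadherin, the main adherens junction cadherin of keratinocytes, and its probe set (1448261_PM_at) gave nearly the same level in all regions. At D4 it was 9.27 and 9.32 in the LE, 9.15 and 9.10 in the hub, and 9.18 and 9.22 in control. At D7 it was 7.79 and 7.72 in the LE, 7.74 and 7.79 in the hub, and 7.76 and 7.53 in control. The LE arrays lay just above control at D4 and overlapped it at D7. The LE differed from control by 0.09 ± 0.10 (SE) on the log2 scale at D4 and 0.11 ± 0.10 at D7 (limma adjusted p = 0.697 and 0.586). Over all 6 comparisons the intervals allowed at most 1.32-fold more and no less than 0.807 of the other region's level.

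Cdh2 encodes N-cadherin, the cadherin gained in many EMT settings, and both of its probe sets stayed low. The lead probe set (1449244_PM_at) read 3.90 and 4.00 in the LE, 4.15 and 4.00 in the hub, and 4.17 and 3.97 in control at D4. At D7 it read 2.68 and 3.05 in the LE, 2.68 and 2.77 in the hub, and 3.13 and 2.78 in control. All 12 values lay below the array medians, at -1.59 to -1.15 from them, and the LE overlapped control at both days. The LE differed from control by -0.12 ± 0.16 at D4 and -0.09 ± 0.16 at D7 (limma adjusted p = 0.749 and 0.791). The other probe set ran from 3.56 to 3.85 at D4 and from 2.76 to 3.11 at D7, and its differences from control in the LE were 0.02 and 0.06. An interval on a probe set this dim limits what its signal did, and a change of the transcript below its range would not be seen.

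Cdh3 encodes P-cadherin, the cadherin of basal keratinocytes and hair follicle cells. It was the gene whose probe sets gave different answers. The lead probe set (1426673_PM_at) was bright, with 10.33 and 10.21 in the LE, 10.33 and 10.18 in the hub, and 10.01 and 9.98 in control at D4. At D7 it was 8.48 and 8.58 in the LE, 8.30 and 8.46 in the hub, and 8.20 and 8.34 in control. The LE arrays lay above control at both days and the hub arrays at D4, while the hub and control overlapped at D7. These differences were 0.27 ± 0.11 for the LE at D4, 0.26 ± 0.11 for the LE at D7 and 0.26 ± 0.11 for the hub at D4 (1.21-fold, 1.19-fold and 1.20-fold). None was called in limma (adjusted p = 0.15, 0.166 and 0.408).

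The second Cdh3 probe set (1441255_PM_at) was dimmer, though above the array median on all 12 arrays, and showed a wider gap. It read 7.57 and 7.10 in the LE, 7.16 and 7.01 in the hub, and 6.03 and 6.71 in control at D4. The D7 values were 5.66 and 5.60 in the LE, 4.99 and 5.24 in the hub, and 4.86 and 4.90 in control. The LE and the hub both lay above control at both days, and the LE lay above the hub at D7. Tested among all 28898 probe sets, of which 13.1% and 13.6% were called at D4 and D7, it was higher in the LE than in control by 0.96 ± 0.22 at D4 (1.95-fold, adjusted p = 0.0166) and 0.75 ± 0.22 at D7 (1.68-fold, adjusted p = 0.0482). The hub differed from control by 0.71 at D4 and 0.23 at D7, and the LE from the hub by 0.25 and 0.51 (adjusted p = 0.249, 0.754, 0.706 and 0.291). Among all probe sets, 0.277% and 0.516% were called in the hub against control at D4 and D7, and 4.33% and 2.26% in the LE against the hub.

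These calls rested on few arrays. At D4 the second probe set was no longer called without LE D4 replicate 1 (adjusted p = 0.113) or without control D4 replicate 1 (adjusted p = 0.0833). At D7 it was lost in 8 of 12 fits that each left out one array, those without one of the hub D4 arrays or one of the D7 arrays, with adjusted p up to 0.2 without LE D7 replicate 1. The D7 call also ended with the replicate number as a block (adjusted p = 0.0786) and under quantile normalization (0.0593), and the D4 call with the arrays of that day alone (0.0933). With the mean of both probe sets in place of the lead, Cdh3 was called higher in the LE at D4 (0.62, adjusted p = 0.0146) and at D7 (0.50, adjusted p = 0.036). The positions of the probes are not given in the annotation used here, so whether the sets read different transcripts was not tested. The hair follicle sum of the LE lay below that of control on both days, with 2 and 1 of its 5 markers the other way. Both Cdh3 probe sets read higher in the LE than in control, and the part of hair follicle cells in the Cdh3 values was not tested.

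**Figure D3:**
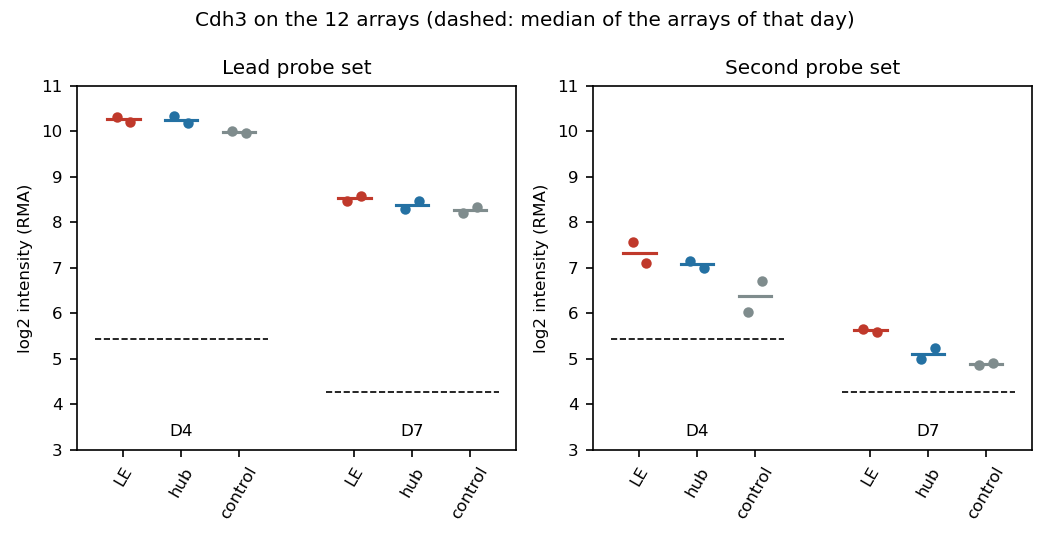
Log2 intensity (y axis) of the 2 probe sets of Cdh3 on the 12 arrays, by region and day. Points are arrays, short lines the means of 2 arrays and dashed lines the median of the arrays of that day. The LE lies above control in both panels, by 0.27 and 0.26 for the lead probe set and by 0.96 and 0.75 for the second.

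Vim encodes vimentin, the intermediate filament of fibroblasts, endothelium, leukocytes and melanocytes and a common readout of EMT. It had by far the widest spread among the 10 genes, and the largest differences between the LE and control. Its lead probe set (1456292_PM_a_at) read 7.05 and 9.28 in the LE, 7.50 and 8.42 in the hub, and 8.30 and 4.14 in control at D4. All 3 regions overlapped at D4, where control replicate 1 lay above control replicate 2 by 4.15 on the log2 scale. On the D7 arrays it read 8.32 and 8.28 in the LE, 6.92 and 5.92 in the hub, and 7.20 and 6.03 in control. Both LE arrays lay above the hub and control at D7.

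The LE exceeded control by 1.95 ± 1.14 at D4 (3.85-fold, limma adjusted p = 0.346) and 1.68 ± 1.14 at D7 (3.21-fold, adjusted p = 0.412). It exceeded the hub by 0.21 at D4 and by 1.88 at D7 (3.68-fold, adjusted p = 0.489), and the hub differed from control by 1.74 at D4 and -0.20 at D7. None of these was called. The SD of Vim within groups was 1.46, against a median of 0.145 over all genes. Only Krt2, Fabp4, Tyrp1, Selp and Aqp1 had a larger one among 17097 genes. The other Vim probe sets, 1450641_PM_at and 1438118_PM_x_at, had control D4 replicate 2 as their lowest array of that day (5.74 and 4.99) and LE D4 replicate 2 as their highest (8.80 and 8.86), as the lead did. Their differences between the LE and control were 1.04 and 1.36 at D4 and 1.28 and 1.53 at D7, with none called.

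Single arrays set the D4 values. Without control D4 replicate 1 the LE exceeded control by 4.02 and was called (adjusted p = 0.0145), and without control D4 replicate 2 the difference was -0.13 (adjusted p = 0.973). It was 3.06 without LE D4 replicate 1 and 0.83 without LE D4 replicate 2 (adjusted p = 0.224 and 0.796), and the LE differed from the hub at D4 by 1.32 and -0.91 in the same fits. The hub at D4 ran from -0.34 to 3.81 over the fits that left out one array. At D7 the LE stayed above control by 1.10 to 2.27 and above the hub by 1.38 to 2.38 in all such fits, and it was called against control (adjusted p = 0.0308) when only the 6 arrays of D7 were fitted, which leaves out the wide spread of D4.

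The sequence before the Vim start site is shown because Vim had the widest spread of the 10 genes. The 250 bases end at the last base before the start, on the plus strand of GRCm38.p6 at chr2:13574061-13574310 (RefSeq), with a TATA box (TATAAA) in capitals that begins 32 bases before the start.
Vim: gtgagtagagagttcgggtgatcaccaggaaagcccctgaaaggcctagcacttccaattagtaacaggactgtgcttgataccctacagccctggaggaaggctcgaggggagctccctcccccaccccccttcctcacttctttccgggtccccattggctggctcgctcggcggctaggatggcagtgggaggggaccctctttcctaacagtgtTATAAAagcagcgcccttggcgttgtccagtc
Of all 32851 promoters of 300 bases in the same set, 13.6% hold TATAAA on either strand, and the E-box CACCTG was not found in the 300 bases around the Vim start.

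Vim is abundant in several cell types that a basal sort should leave out, so the marker genes of those types are given beside it. The 5 endothelial markers (Pecam1, Cdh5, Kdr, Emcn and Tie1) had a summed linear intensity of 376 to 603 in LE D4, 271 to 420 in hub D4 and 202 to 565 in control D4. At D7 the sum was 281 to 342 in the LE, 127 to 144 in the hub and 121 to 157 in control. At D7 it was thus higher on both LE arrays than on any other array, as Vim was. All 5 lay above the array median on the LE arrays of both days, 4 to 5 did in hub D4, 3 to 5 in control D4, 2 to 3 in hub D7 and 3 to 4 in control D7.

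Pecam1, an adhesion molecule of endothelial cells, read 6.54 and 7.40 in the LE, 6.51 and 7.09 in the hub, and 7.60 and 5.51 in control at D4. The gap between the D4 control arrays thus had the same direction as that of Vim. Cdh5, the cadherin of endothelial junctions, read 6.88 and 6.70 in the LE, 4.54 and 3.93 in the hub, and 4.65 and 4.87 in control at D7. It rose in the LE against control by 2.03 (limma adjusted p = 0.027) and against the hub by 2.56 (adjusted p = 0.0342), calls that were lost in 4 and 6 of 12 fits without one array. Tie1, a receptor kinase of endothelium, rose in the LE against control by 1.06 at D4 and 1.18 at D7 (adjusted p = 0.00627 and 0.00398) and was called in all 12 such fits, though at D4 not with the arrays of that day alone (adjusted p = 0.0566). With the mean of its probe sets Cdh5 rose by 1.33 and 1.69. The part of these cells in the Vim values was not tested.

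Melanocyte markers (6 genes) summed to 259 to 299 in LE D4, 340 to 2255 in hub D4 and 342 to 1055 in control D4, with the high values on hub D4 replicate 2 and control D4 replicate 1. At D7 they summed to 132 to 134 in the LE, 155 to 168 in the hub and 163 to 166 in control. The gap between the D4 control arrays was 4.15 for Vim, 3.97 for Tyrp1, 2.10 for Mlana and 2.09 for Pecam1, each higher on replicate 1. Between the D4 LE arrays Vim was higher on replicate 2 by 2.23, Pecam1 by 0.86 and Tyrp1 by 0.20, and between the D4 hub arrays by 0.92, 0.58 and 4.80 for the same genes. Most other melanocyte markers went against Vim between the D4 LE arrays. Replicate 2 minus replicate 1 was -0.37 for Tyr, -0.18 for Mlana, -0.28 for Pmel, -0.34 for Sox10 and 0.07 for Dct. The melanocyte sum was 299 on LE D4 replicate 1 and 259 on replicate 2. The 7 fibroblast markers summed to 329 to 353 in LE D4, 303 to 570 in hub D4 and 590 to 797 in control D4. At D7 the fibroblast sum was 158 to 207 in the LE, 181 to 279 in the hub and 425 to 445 in control, and Dcn, a dermal proteoglycan, fell in the LE against control by 2.59 (adjusted p = 0.0151, lost in 4 of 12 fits without one array). Of the 7 fibroblast markers, 3 read higher in LE D4 than in control D4 and 2 in LE D7 than in control D7, none of them called, with a median difference of -0.14 and -0.11. Dcn and Col6a1 had the largest differences, of -1.59 and -1.66 at D4 and -2.59 and -1.43 at D7, of which only that of Dcn at D7 was called. For 8 markers of Langerhans and other immune cells, the sum was 277 to 302 in LE D4, 283 to 300 in hub D4 and 278 to 327 in control D4, and 153 to 155 in LE D7, 132 to 150 in hub D7 and 159 to 229 in control D7. The part of melanocytes, fibroblasts and immune cells in the Vim values was not tested.

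**Figure D4:**
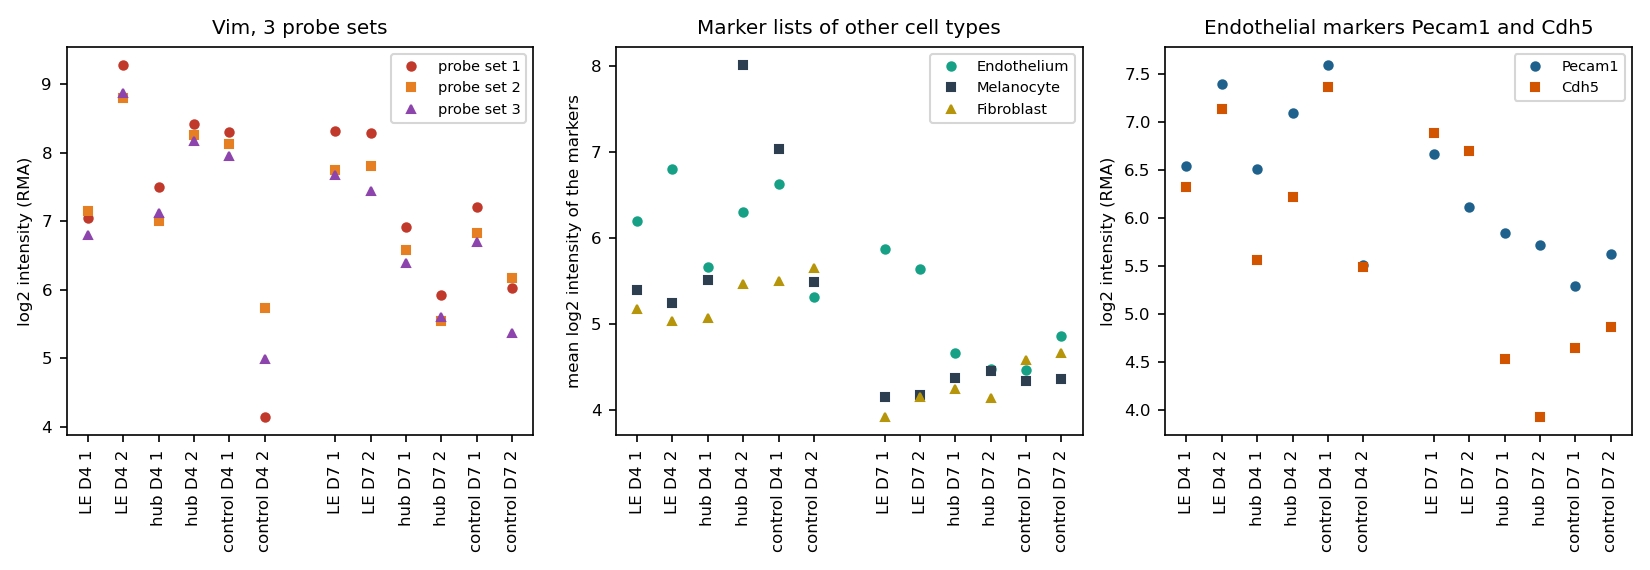
Log2 intensities (y axes) on each of the 12 arrays of the 3 probe sets of Vim at the left, of the mean of the endothelial, melanocyte and fibroblast markers in the middle, and of Pecam1 and Cdh5 at the right. Each point is an array, with the replicate number after region and day. The Vim probe sets move together, and control D4 replicate 2 is the lowest D4 array for Vim, for the endothelial mean and for both single markers.

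The 4 transcription factors of EMT showed no called difference. Snai1, Zeb1 and Twist1 were dim, and a change of these transcripts below the range of their probe sets would not be seen. Snai1, a zinc finger repressor of Cdh1, lay below the array median on all 12 arrays (1448742_PM_at). It read 4.63 and 4.51 in the LE, 4.46 and 4.59 in the hub, and 4.57 and 4.59 in control at D4. At D7 the values were 3.55 and 3.64 in the LE, 3.58 and 3.94 in the hub, and 3.41 and 3.65 in control. The 3 regions overlapped at both days, and the LE differed from control by -0.01 ± 0.14 at D4 and 0.06 ± 0.14 at D7 (limma adjusted p = 0.976 and 0.847).

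The Snai1 promoter is shown because it holds CACCTG, the E-box that SNAI and ZEB proteins bind. It lies on the plus strand at chr2:167537945-167538194 (GRCm38.p6, RefSeq), again as the 250 bases before the start site, and the E-box in capitals begins 126 bases before the start.
Snai1: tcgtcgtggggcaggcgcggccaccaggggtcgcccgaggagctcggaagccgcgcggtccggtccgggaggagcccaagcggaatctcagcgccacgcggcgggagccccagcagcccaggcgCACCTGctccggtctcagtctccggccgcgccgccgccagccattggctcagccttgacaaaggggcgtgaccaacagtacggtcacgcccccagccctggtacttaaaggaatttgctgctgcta
CACCTG or its reverse complement is found in 20.2% of the 32851 promoters, so that a match by itself marks no site. The promoter sequences of Vim, Snai1 and Twist1 were matched, 3 of the 10 genes. Promoters on a single chromosome were left out of this search, so genes that lie there could not be matched. The set used held no promoter of Cdh1, Cdh3, Snai2, Esrp1 or Esrp2.

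Snai2, the SNAI family member best known from migrating keratinocytes, was the only one of these factors that was clearly above the array medians (1418673_PM_at). It read 7.64 and 7.47 in the LE, 7.77 and 7.30 in the hub, and 8.09 and 7.42 in control at D4. Its D7 values were 6.45 and 5.99 in the LE, 6.32 and 6.34 in the hub, and 6.27 and 5.74 in control. The LE overlapped control at both days, and both hub arrays lay above control at D7. The LE differed from control by -0.20 ± 0.26 at D4 and 0.22 ± 0.26 at D7, and the hub by -0.22 ± 0.26 and 0.32 ± 0.26 (limma adjusted p = 0.74, 0.678, 0.926 and 0.687). Its SD within groups, 0.314, was exceeded by 6.86% of all genes, and its intervals ran from 0.574-fold to 1.87-fold.

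Zeb1, a zinc finger homeodomain repressor of Cdh1, was represented by 3 dim probe sets. The lead (1418926_PM_at) read 4.58 and 4.59 in the LE, 4.52 and 4.59 in the hub, and 4.75 and 4.39 in control at D4, below the array median in each case. At D7 it read 3.93 and 3.99 in the LE, 3.64 and 3.58 in the hub, and 3.85 and 3.76 in control. Both LE arrays were above both hub arrays at D7, by 0.34 ± 0.12 (1.27-fold, unadjusted p = 0.0194, limma adjusted p = 0.195). The other probe sets differed between the LE and the hub at D7 by 0.22 (1446127_PM_at) and -0.04 (1443005_PM_at), so the 3 probe sets did not share a direction.

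Twist1, a basic helix-loop-helix factor, was dim as well (1418733_PM_at). It read 4.31 and 4.36 in the LE, 4.21 and 4.20 in the hub, and 4.35 and 4.43 in control at D4. The D7 values were 3.36 and 3.57 in the LE, 3.31 and 3.23 in the hub, and 3.15 and 3.39 in control. The LE lay above the hub at both days, by 0.13 and 0.20 ± 0.12, and overlapped control at both (limma adjusted p of 0.327 to 0.998 over the 6 comparisons).

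Esrp1 and Esrp2 encode the splicing factors that keep epithelial exons in transcripts such as those of Fgfr2 and Cd44, and both lay well above the array medians on all 12 arrays. Esrp1 (1454681_PM_at) read 9.68 and 9.67 in the LE, 9.68 and 9.79 in the hub, and 9.66 and 9.79 in control at D4. On the D7 arrays it read 8.71 and 8.60 in the LE, 8.75 and 8.92 in the hub, and 8.80 and 8.76 in control. The LE arrays of D7 were the lowest of that day, by a difference of -0.13 ± 0.10 from control and -0.18 ± 0.10 from the hub (limma adjusted p = 0.501 and 0.457). No interval of Esrp1 went below 0.751 of the other region's level.

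Esrp2 (1433683_PM_at) lay the other way at D7. It read 10.01 and 9.66 in the LE, 9.70 and 9.75 in the hub, and 9.97 and 9.61 in control at D4, with all regions overlapping. At D7 the values were 9.21 and 8.85 in the LE, 8.98 and 8.89 in the hub, and 8.64 and 8.57 in control. Both wound regions lay above control, the LE by 0.42 ± 0.16 (1.34-fold, unadjusted p = 0.0279) and the hub by 0.33 ± 0.16 (1.26-fold), and neither was called (limma adjusted p = 0.124 and 0.452).

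Groups that did not overlap are given beside their share among all genes. For the LE against control they numbered 2 of 10 at D4 and 5 of 10 at D7, against 49.4% and 55% of all genes. In the hub against control they numbered 3 and 4 of 10, against 39.2% and 43.9%, and in the LE against the hub 3 and 5 of 10, against 43.7% and 47.1%. These shares were near or below those of all genes. The median difference of the 10 genes between the LE and control was 0.00 at D4 and 0.18 at D7, beside 0.03 and 0.02 over all genes.

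Other genes of the same programme are given as lists, and each list count stands beside the share of all genes called in that direction. For the LE against control, 8.3% of all genes were higher and 5.83% lower at D4, and 9.25% and 5.37% at D7. For the LE against the hub the shares were 2.61% and 2.15% at D4, and 1.33% and 1.4% at D7. For the hub against control they were 0.222% and 0.105% at D4, and 0.591% and 0.17% at D7. With the 6 arrays of D4 alone, 16 of the D4 calls of list and marker genes were lost (adjusted p = 0.0525 to 0.169), which left fewer degrees of freedom.

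Among 11 other transcription factors linked to EMT, 1 rose and 1 fell in the LE against control at each day. Snai3, the third SNAI family member, read 7.08 and 6.75 in the LE, 5.94 and 5.83 in the hub, and 5.73 and 5.55 in control at D4. It rose in the LE by 1.27 ± 0.19 against control (limma adjusted p = 0.00201) and by 1.03 against the hub (adjusted p = 0.0148). Against control it was called in all 12 fits that left out one array, and against the hub it was lost in 3 of them. Snai3 thus rose where Snai1 and Snai2 were not called, and the differences between these genes were not tested.

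The inhibitors of basic helix-loop-helix factors moved in different directions. Id3 fell in the LE, to 7.57 and 7.89 at D4, against 9.03 and 9.34 in the hub and 9.36 and 9.52 in control. The fall was 1.71 ± 0.16 against control and 1.46 ± 0.16 against the hub at D4 (limma adjusted p = 0.000173 and 0.00126), and 0.80 against control at D7 (adjusted p = 0.0103, lost in 3 of 12 fits without one array). Id1 rose in the LE against control at D7 by 0.93 ± 0.15 (adjusted p = 0.00391), with 8.08 and 8.05 in the LE and 7.17 and 7.11 in control. In the LE against the hub at D7 1 factor rose, Tcf4, by 0.67 (adjusted p = 0.0364, lost in 6 of 12 such fits and, at 0.04, with the mean of its probe sets). In the hub against control 0 of 11 were called in limma at either day, with 0 at D4 and 2 at D7 under an unadjusted p of 0.05.

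Adherens junction partners of the cadherins were measured for 10 genes, the catenins, vinculin, afadin and the nectins. In the LE against control 3 rose and 1 fell at each day. Vcl, which encodes vinculin, the link of strained junctions to actin, read 11.38 and 11.19 in the LE, 10.69 and 10.59 in the hub, and 10.47 and 10.41 in control at D4. It rose in the LE against control by 0.85 ± 0.11 at D4 and 0.67 ± 0.11 at D7 (limma adjusted p = 0.000958 and 0.0038). Nectin4 rose by 1.17 ± 0.17 and 1.49 ± 0.17 (adjusted p = 0.00162 and 0.000552), and Nectin1 by 0.51 ± 0.11 and 0.55 ± 0.11 (adjusted p = 0.0108 and 0.00761). Both are immunoglobulin-like adhesion receptors. Afdn, the actin-binding partner of nectins, fell by 1.28 ± 0.17 and 0.90 ± 0.17 (adjusted p = 0.00104 and 0.00738), and by 0.64 and 0.52 with the mean of its probe sets (0.00134 and 0.00442).

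Of these calls against control, Vcl and Nectin4 held at both days in all 12 fits without one array and Afdn at D4, while Afdn at D7 was lost in 1, Nectin1 at D4 in 2 and Nectin1 at D7 in 1. In the LE against the hub 3 rose and 1 fell at D4 (Nectin4 by 0.92, Vcl by 0.64, Ctnna1 by 0.40 and Afdn by -0.79), and 2 rose at D7 (Nectin4 by 0.83 and Vcl by 0.67). Each of these was lost in some of those fits, from 2 for Vcl and Nectin4 at D4 to all 12 for Ctnna1, which with the mean of its probe sets differed by 0.15 (adjusted p = 0.507). The catenins bound to cadherin tails, Ctnnb1, Ctnnd1 and Jup, were called in no comparison. In the hub against control 0 of 10 were called in limma at either day, with 1 at D4 and 2 at D7 under an unadjusted p of 0.05.

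Among 14 genes of epithelial identity, 2 rose and 1 fell in the LE against control at D4, and 3 rose and 1 fell at D7. Cldn1, a claudin of tight junctions, read 9.87 and 9.94 in the LE, 10.66 and 10.51 in the hub, and 10.93 and 10.74 in control at D4. It fell in the LE against control by 0.93 ± 0.12 at D4 and 0.75 ± 0.12 at D7 (limma adjusted p = 0.00102 and 0.00367), and held in all 12 fits without one array at both days. Against the hub it fell by 0.68 at D4 (adjusted p = 0.0134, lost in 2 of 12), the only call of this list in the LE against the hub at that day.

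The other calls of this list were higher in the LE. St14, the membrane protease matriptase, rose by 0.66 at D4 and 0.68 at D7, and Epcam, an epithelial adhesion molecule, by 0.61 at D4 (limma adjusted p = 0.0207, 0.0186 and 0.0485). Leaving out single arrays ended these calls in 3, 4 and 8 of 12 fits, with adjusted p up to 0.276 for Epcam, without LE D4 replicate 1. At D7 Rab25, an epithelial small GTPase, rose by 0.70 ± 0.12 (adjusted p = 0.00462, held in all 12) and Grhl1, a grainyhead transcription factor, by 0.63 ± 0.13 (adjusted p = 0.0113, lost in 2). The epithelial factors Grhl2, Ovol1, Ovol2 and Trp63 were called in no comparison. In the hub against control 0 of 14 were called in limma, with 3 at D4 and 5 at D7 under an unadjusted p of 0.05, and in the LE against the hub at D7 0 were called and 4 lay under it.

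Mesenchymal genes often read in EMT moved in both directions. Of 11 measured, 6 rose and 2 fell in the LE against control at D4, and 3 rose and 3 fell at D7. The largest rise was that of Mmp9, a gelatinase that keratinocytes and leukocytes secrete, which read 11.73 and 11.17 in the LE, 9.64 and 5.88 in the hub, and 5.49 and 4.82 in control at D4. Its D7 values were 10.38 and 9.60 in the LE, 5.02 and 5.82 in the hub, and 4.44 and 3.67 in control. Against control it rose by 6.30 ± 0.93 at D4 and 5.94 ± 0.93 at D7 (limma adjusted p = 0.00176 and 0.00276), in all 12 fits without one array.

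Fn1, which encodes fibronectin, read 6.46 and 6.43 in the LE, 4.71 and 4.70 in the hub, and 4.67 and 4.60 in control at D4. It rose in the LE against control by 1.82 ± 0.18 at D4 and 1.19 ± 0.18 at D7 (limma adjusted p = 0.000212 and 0.00241), and against the hub by 1.74 and 1.60 (adjusted p = 0.000802 and 0.00356). Acta2, smooth muscle actin, rose against control by 2.11 ± 0.32 and 2.51 ± 0.32 (adjusted p = 0.00198 and 0.000902), and by 1.13 and 1.19 with the mean of its probe sets (0.00504 and 0.00409). Itga5, the α5-integrin subunit of the fibronectin receptor, rose by 1.88 ± 0.34 at D4 (adjusted p = 0.00526). These calls held in all 12 fits without one array. At D4 Tnc, which encodes tenascin C, and S100a4, a calcium-binding protein, also rose, by 0.88 and 0.68 (adjusted p = 0.0145 and 0.0287), and each call was lost in 2 of those fits. With the mean of its probe sets Tnc differed by 0.26 and was not called (adjusted p = 0.463).

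The members of this list that fell were Thy1, a surface glycoprotein of fibroblasts and other cells, and the matrix proteins Postn and Sparc. Thy1 read 8.54 and 8.62 in the LE, 9.82 and 9.47 in the hub, and 10.08 and 9.87 in control at D4, and fell against control by 1.39 ± 0.15 at D4 and 1.88 ± 0.15 at D7 (limma adjusted p = 0.000315 and 7.75e-05). Postn fell by 1.32 ± 0.13 and 1.18 ± 0.13 (adjusted p = 0.000221 and 0.00053). Sparc fell by 0.39 at D7 (adjusted p = 0.0255, lost in 4 of 12 fits without one array). Of the marker sums given above, the LE had less than control for fibroblasts at both days, with 3 and 2 of 7 markers the other way. The LE also had less for the hair follicle, with 2 and 1 of 5 markers the other way, and more for endothelium at D7. For Langerhans and other immune cells the sums of the LE and control overlapped at D4. At D7 they were 153 to 155 in the LE and 159 to 229 in control, with 2 of 8 markers the other way. The part of these cells in the mesenchymal list was not tested.

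In the LE against the hub the mesenchymal list had 2 higher and 2 lower at D4 (Fn1, Acta2, Thy1 and Postn), and 3 higher and 2 lower at D7 (Mmp9 by 4.57, Acta2 by 2.33, Fn1, Thy1 by -1.56 and Postn by -0.76). At D7 the call of Mmp9 was lost in 6 of 12 fits without one array, that of Postn in 4 and that of Acta2 in 1. In the hub against control 0 of 11 were called in limma at either day, with 1 at D4 and 2 at D7 under an unadjusted p of 0.05. Mmp9 there had one array of 9.64 and one of 5.88 at D4.

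**Figure D5:**
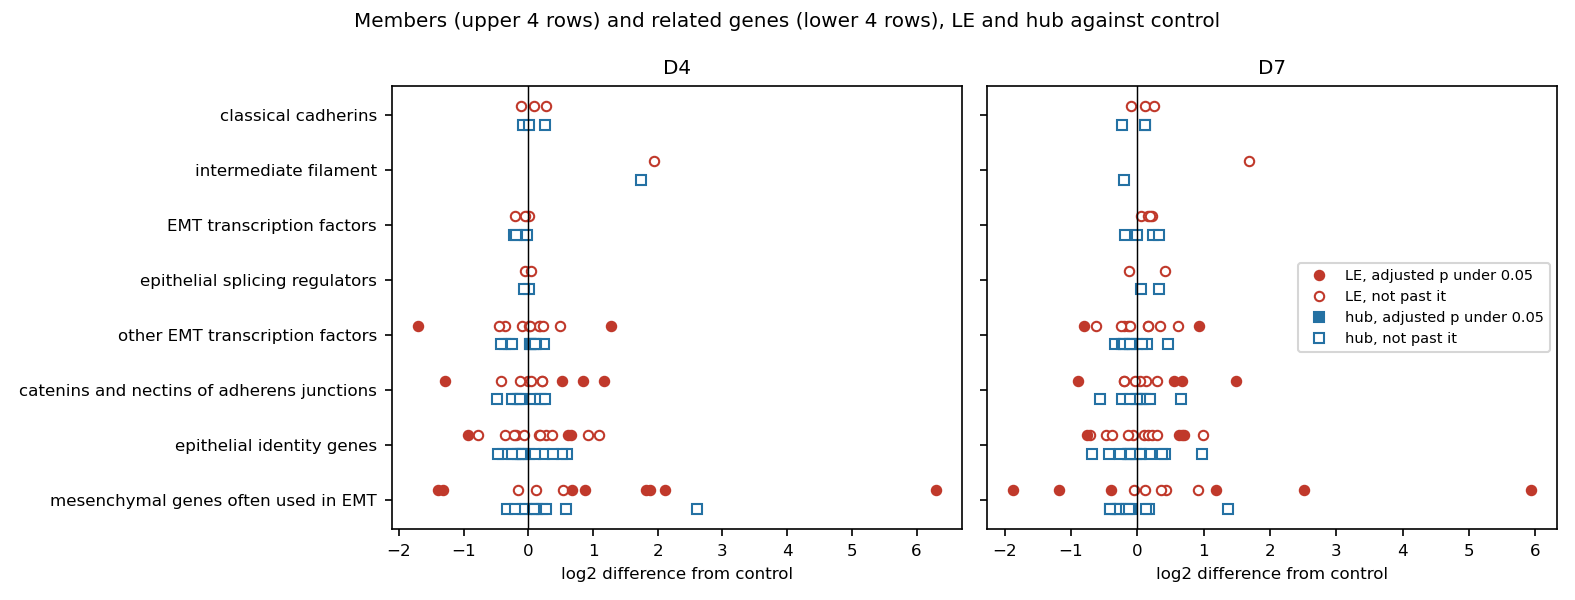
Log2 differences from control (x axis) of the 10 genes in the upper 4 rows and of related genes in the lower 4 rows, for the LE (circles) and the hub (squares) at D4 and D7. Filled marks passed an adjusted p of 0.05 in limma. None of the 10 genes is filled, and filled marks are found in the LE alone.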

How the data were processed

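Per the methods and the labels, basal cells were sorted from pooled CD1 tail skin and 12 samples were arrayed. The deposited table holds log2 intensities for 45141 probe sets, made by the authors with RMA (background correction, quantile normalization and probe summary, of a version not given in the sources used). All 12 columns were used. Besides 104 controls, 551 probe sets matched several genes and 15588 none in the annotation, and these were left out, which kept 28898. Dim probe sets were not filtered.

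One model with 6 groups was fitted in limma 3.58.1 (R 4.3.3) to the probe set with the highest mean of each of 17097 genes, on 6 residual degrees of freedom. Every adjusted p in the text is from its moderated test, on 2 arrays per group, after Benjamini-Hochberg correction over all genes or, where stated, over all 28898 probe sets. Intervals are 95% from the moderated SE. The number of arrays limits the precision. The procedure was tested on simulated data. The 10 genes, the gene lists and the marker lists were chosen with earlier results of these data known. From each list, up to 4 called genes with the largest difference per comparison are named, and others were chosen after their values were seen. The nectin and afadin genes are given under present symbols, and Tagln was not analysed here. Alternatives were other scalings, the mean of probe sets, each probe set, a filter on dim genes, array weights, another prior, same-day arrays, the fold rule, a replicate block and leaving out each array. The fits of the second Cdh3 probe set under these alternatives, and those of the list genes, were added after the data were seen.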

Additional observations from a re-analysis of the deposited data

How the results depend on the processing

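The count of called genes among the 10 was 0 in 146 of 152 counts under alternatives. It became 1 for the LE against control at D4 with the mean of all probe sets (Cdh3) and without control D4 replicate 1 (Vim), with 0 to 1 over all fits that left out one array. For the LE against control at D7 it became 1 with the mean of all probe sets (Cdh3), with same-day arrays only (Vim) and by the fold rule (Vim), and for the LE against the hub at D7 it became 1 by the fold rule (Vim). The causes were not tested, other than that same-day arrays leave out the spread of the other day. Of 1236 single values under alternatives, 54 changed sign, none of them called, and apart from Vim none of those was larger than 0.219 after the change. The second Cdh3 probe set was also lost in the LE against control at D4 with same-day arrays only (adjusted p = 0.0933), and at D7 under quantile normalization (0.0593) and the replicate block (0.0786). The filter on dim genes kept 8548 genes and 6 of the 10, leaving out Cdh2, Snai1, Zeb1 and Twist1, whose signals near the bottom of the range limit what can be seen. Over all genes, the hub against control at D4 called 56 genes as reported, 148 with a trended and robust prior, 118 with the block and 1 with same-day arrays.

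Among list and marker genes, the calls that ended without a single array did so mostly without arrays of the groups compared. At D7 these were Afdn and Nectin1 against control and Acta2 against the hub (LE replicate 1), Grhl1 (LE or control replicate 1), Id3 (LE replicate 2 or either control), Vcl against the hub (LE replicate 1 or either hub), and St14, Sparc, Dcn and Cdh5 against control and Postn and Tie1 against the hub (any array compared). Those of Tcf4, Nectin4, Mmp9, Cdh5 and Dst against the hub ended without any one of the D7 arrays. At D4 they were Nectin1 and Tnc (LE or control replicate 1), S100a4 (LE replicate 2 or control replicate 1), St14 (LE replicate 1 or either control) Krt1 and Krt10 (LE replicate 1 or either control), Sox9 (LE or control replicate 1 or any one of the D7 arrays) and Itga6 (any array compared) against control, and Krt15 at D7 (LE replicate 1 or either control). Against the hub at D4 they were Nectin4 and Cldn1 (LE or hub replicate 1), Vcl and Krt15 (LE replicate 1 or hub replicate 2), Snai3 (LE replicate 1 or either hub), Dst (hub replicate 2) and Afdn (LE replicate 1, hub replicate 2 or any D7 hub or control array). Epcam against control at D4 was lost without LE replicate 1, control replicate 2 or any one of the D7 arrays, and Ctnna1 against the hub at D4 without any one of the 12 arrays. With the arrays of D4 alone, the calls of Nectin1, Epcam, St14, S100a4, Itga6, Krt1, Krt10, Sox9 and Tie1 against control and of Vcl, Afdn, Nectin4, Cldn1, Ctnna1, Dst and Krt15 against the hub were lost. Calls of list and marker genes were also lost with the mean of probe sets (4: Tcf4, Ctnna1, Tnc and Sox9), quantile normalization (4: Tcf4, Nectin4, Epcam and Cdh5), array weights (3: Epcam, Itga6 and Sox9), another prior (2: Tcf4 and Mmp9) and each probe set tested (1: Epcam). The mean of probe sets moved 10 other called values by over 1.5 times, all of Acta2, Afdn, Sparc or Cdh5, and the causes were not tested.

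With the replicate number as a block within the day, 0 of the 10 genes were called in each of the 6 comparisons and in the change between days. Same-numbered arrays of a day deviated together with r of 0.170 to 0.245 at D4 and 0.002 to 0.067 at D7, and the sources do not say whether same-numbered regions came from the same pool of mice, so whether the numbers pair the samples is not settled. The block ended the D7 call of the second Cdh3 probe set and 5 calls of list and marker genes, of Sox9 against control and Afdn and Ctnna1 against the hub at D4 and of Tcf4 and Cdh5 against the hub at D7.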
